A study of Bos taurus with 6 samples.

Results

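Bovine embryos made by in vitro fertilization were profiled on Affymetrix Bovine Genome Arrays at 2 outcomes, as blastocysts (3 pools) and as late degenerative embryos (3 pools), lettered A, B and C in each group. A pool held 20 embryos and each pool had its own array. The RNA of a pool was amplified linearly in 2 rounds before hybridization. Both groups were cultured alike from oocytes of abattoir ovaries, had compacted by the first grading, and were graded again on day 8, when blastocysts had an inner cell mass and a blastocoele and the degenerative embryos had not made that transition. A pool mixed embryos of several cows and bulls. The degenerative pools may hold different stages of arrest, and in such bulk RNA fewer cells of a type and less RNA per cell cannot be told apart. The set described here is the probe sets (groups of short oligonucleotides whose signals are summarized as a log2 value) that had a value of at least 5 in at least 2 of the 3 degenerative pools and under 5 in all 3 blastocyst pools. It held 179 of 24016 probe sets, or 0.745%. Of these, 98 carried a single gene symbol, 1 carried several and 80 carried none. The share with a single symbol was 54.7%, beside 55.3% of all probe sets. ARRDC2 and SDS were counted but are not described, which left 96 genes.

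These probe sets were chosen by their log2 values on all 6 arrays, so their counts, levels and differences are a description and have no test. A level of 5 is a choice on a continuous scale and not a detection call of the array software, and a value under it does not show that a transcript was absent. The labels were set against markers. Of 7 trophectoderm markers measured, 7 reached 5 in every blastocyst pool and 6 or 7 in the degenerative pools. Of 8 listed markers of inner cell mass and epiblast, only 2 were measured, the transcription factors POU5F1 and SOX2. Both reached 5 in all 6 pools. The summed linear signal of the trophectoderm markers was nonetheless lower in degenerative embryos, at 65887 to 67754 against 76430 to 99629 in blastocysts, without overlap. TFAP2A, a transcription factor of trophectoderm, was at 9.26, 8.96 and 8.70 in blastocyst pools A, B and C and at 4.78, 6.98 and 6.47 in the degenerative pools. PTGS2, which makes prostaglandins, and IFNT2, an interferon tau, had means that differed by -1.005 each (degenerative minus blastocyst, log2), and the other 4 by -0.57 to -0.04. POU5F1 and SOX2 went the other way, with means that differed by 0.48 and 1.03. Their summed linear signal was 6686 to 10957 in degenerative embryos and 5438 to 6421 in blastocysts, without overlap. Most of this sum came from POU5F1. The pools of SOX2 overlapped, at 8.03 in blastocyst pool B and 8.02 in degenerative pool C. The sum of 6 hypoblast markers overlapped, at 37249 to 62667 in degenerative embryos and 40450 to 44460 in blastocysts. The part of these differences in the members was not tested.

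The transition from compacted morula to blastocyst is the step at which outer cells become trophectoderm, an epithelium that seals itself with junctions and pumps fluid inward, while inner cells keep pluripotency factors. Fibroblast growth factors carry signals between these cell types. Genes of extracellular matrix, smooth muscle-type contraction, immunity and detoxification are better known from later tissues, but many are also measured in an early embryo. Of 19 listed genes of extracellular matrix and matrix proteases, 13 reached 5 in at least 2 blastocyst pools by their brightest probe set. So did 9 of 13 genes of muscle and cytoskeleton and 5 of 18 cytokines and chemokines, beside 6117 of all 9155 genes.

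Most of the members lay close to the chosen level. Values of the degenerative pools reached at most 9.31, and 21 of the 179 had a degenerative mean of at least 6. In 117 members the second highest degenerative pool was under 5.5, and in 107 the highest blastocyst pool was at least 4.5. The mean of the blastocyst pools lay within 1 of the floor of the scale, at 2.12, for 14 members. The difference of group means (degenerative minus blastocyst, log2) ran from -0.24 to 3.69 with a median of 1.16. It was at least 1 for 107 members, where 5.07% of the 18937 probe sets that varied over the arrays rose by as much, and at least 2 for 34 members (0.755% of those probe sets). It was under 0.5 for 25 members and below 0 for 2 of them. All 3 degenerative pools lay above all 3 blastocyst pools in 66 members, and 6.48% of the varying probe sets did so. limma with Benjamini-Hochberg adjustment over all of these probe sets called 0 of the 179 as higher at an adjusted p of at most 0.15, where it called 0.00528% of them as higher and 0.0211% in either direction. With the pool letter as a block, limma called 0 of the 18937 (1789 at an unadjusted p under 0.05). The smallest adjusted p from limma among the members was 0.227, and 52 had an unadjusted p under 0.05, beside 3.34% of those probe sets. Nothing is read from these counts, since the rule used the same contrast.

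**Figure D1:**
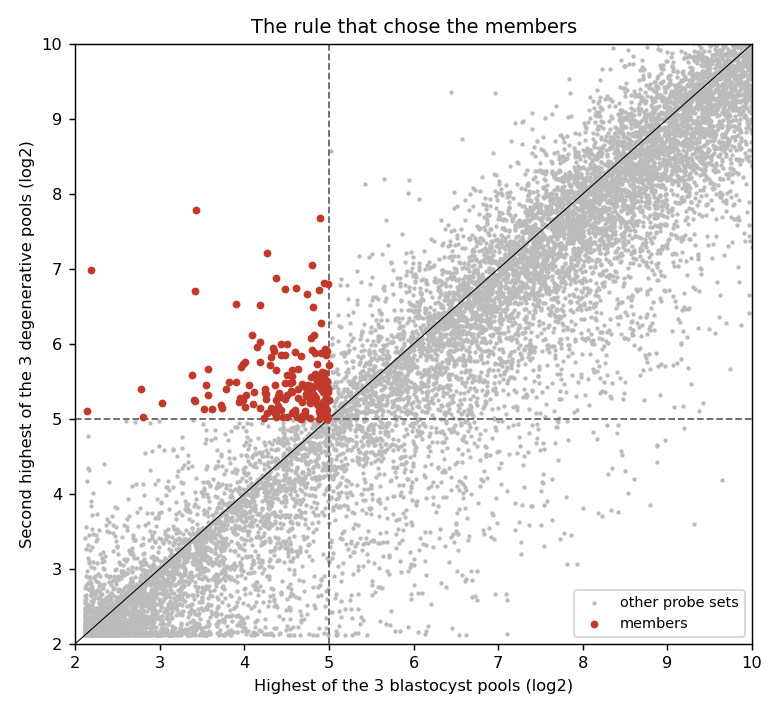
Highest of the 3 blastocyst pools (horizontal axis, log2) against the second highest of the 3 degenerative pools (vertical axis, log2), each point a probe set, with the 179 members in red, dashed lines at the level of 5 and a solid line of equality. The members fill the corner above and to the left of the dashed lines, and many sit next to a line.

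Values beside the border show how little separated some members from other probe sets. GOLGA1, a Golgi coiled-coil protein, was just inside, with a second highest degenerative pool of 5.00372 and blastocyst pools at 4.77, 4.89 and 4.79. TSPAN1, a membrane tetraspanin, stayed outside by a second highest degenerative pool of 4.99587, although degenerative pool A was at 8.76. P4HA3, which hydroxylates proline in collagen, also stayed outside, at 4.99, 6.63 and 4.85 in degenerative pools A, B and C and 2.68, 3.34 and 4.85 in the blastocyst pools. On the other side RILPL2, a protein of ciliary membranes, was a member with a highest blastocyst pool of 4.99612. AP4M1, a subunit of an adaptor complex for vesicles, was a member by a similar margin, at 4.99441. PSPC1, a paraspeckle protein, was left out by a blastocyst pool at 5.01, with degenerative pools at 6.64, 4.77 and 5.27. The remaining probe sets nearest the border had no gene symbol.

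The degenerative pools did not carry the members evenly. In 30 of the 179, or 16.8%, all 3 degenerative pools reached 5. Pools A and B alone did so in 60, pools B and C in 63 and pools A and C in 26. Pool B reached the level in 153 members, pool C in 119 and pool A in 116. Pool A was nevertheless the highest of the degenerative pools in 81 members (45.3%) and the lowest in 71 (39.7%). Over all varying probe sets, pool A was the highest in 46.6% and the lowest in 47.9%. Where degenerative pools tied, as many do at the floor, the count went to the earlier letter. These shares of all varying probe sets therefore favor pool A. Pool C was lowest in 41.3% of the members and in 26.3% of all varying probe sets. Ties lower the second of these shares, so they are not directly comparable.

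**Figure D2:**
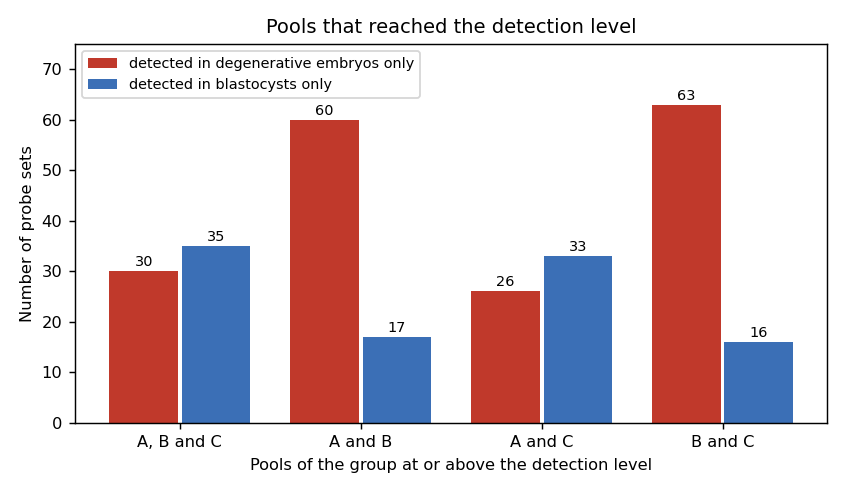
Number of probe sets (vertical axis) by which pools of the group reached a log2 value of 5 (horizontal axis), for the 179 detected in degenerative embryos but not in blastocysts (red) and the 101 of the reverse set (blue). Pools A and B (60) and pools B and C (63) are the commonest combinations in red, and all 3 pools (35) in blue.

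The same rule turned around, with 5 in at least 2 blastocyst pools and under 5 in all degenerative pools, gave 101 probe sets. All 3 blastocyst pools reached 5 in 35 of these, or 34.7%, and 67 had no overlap between the groups, where 8.93% of the varying probe sets had every blastocyst pool above every degenerative pool. The median SD of the pools in the group that reached the level was 0.940 for the 179 members and 0.443 for the reverse set. Degenerative pools also varied more than blastocyst pools over all varying probe sets, with a median SD of 0.390 against 0.216. The median difference was 1.16 for both sets, in opposite directions. These values are side by side without a test.

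The 24 named genes with the largest difference of means are given with the value in every pool, those of pools A, B and C in this order. Their functions were assigned by hand from their symbols, and the other named genes follow in their groups.

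**Figure D3:**
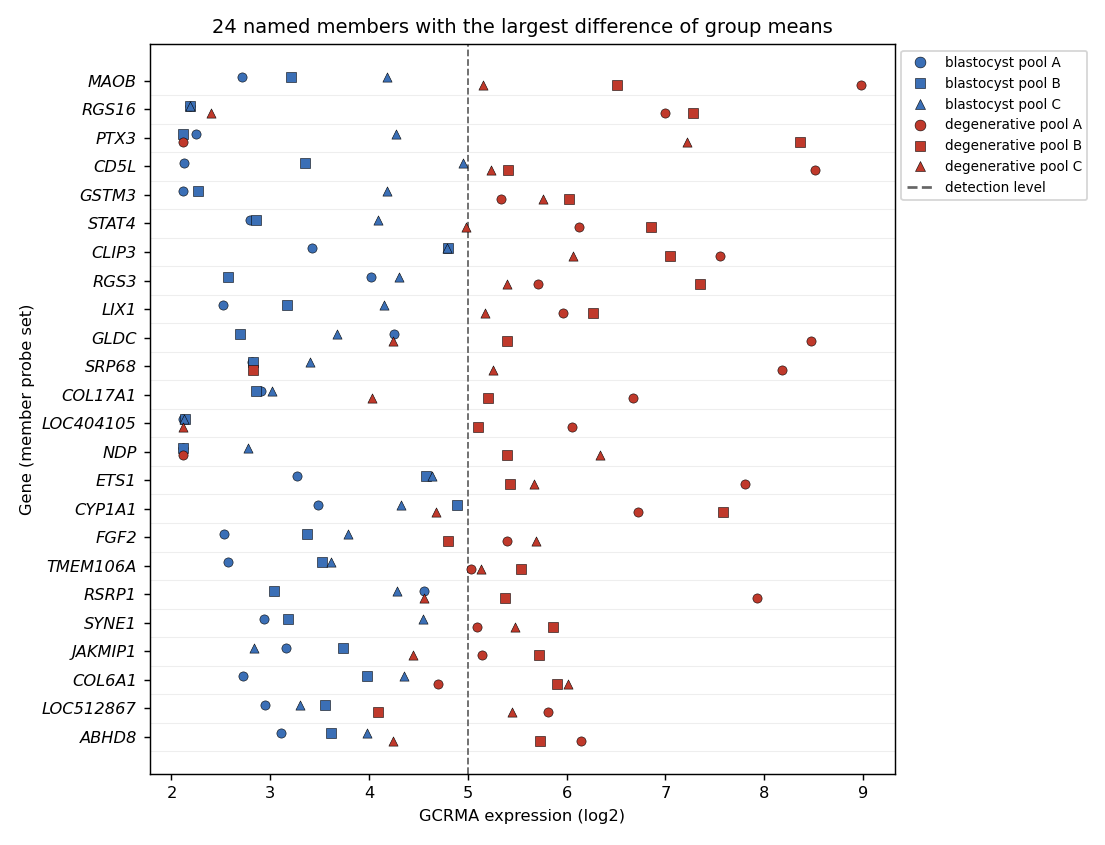
GCRMA expression (horizontal axis, log2) of the member probe sets of the 24 named genes (vertical axis), with blastocyst pools in blue, degenerative pools in red and a marker shape for each pool letter and a dashed line at 5. All blastocyst pools lie left of the line, whereas single degenerative pools of PTX3, NDP, SRP68, RGS16 and LOC404105 lie near 2 to 3.

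Among 14 genes of metabolism, detoxification and transport, the differences ran from 0.40 to 3.51 with a median of 1.35, and 10 were at least 1. MAOB, a monoamine oxidase of the mitochondrial outer membrane, was at 2.71, 3.21 and 4.19 in blastocysts and 8.98, 6.51 and 5.15 in degenerative embryos. Its degenerative pools all lay above its blastocyst pools, with a difference of 3.51 and a spread of 1.94 (SD, n = 3) among the degenerative pools. GSTM3, a glutathione S-transferase that conjugates reactive compounds, was at 2.12, 2.27 and 4.18 in blastocysts and 5.33, 6.02 and 5.76 in degenerative embryos. Here the degenerative pools were tight, at 5.70 ± 0.35 (SD, n = 3), and the blastocyst pools were spread, at 2.86 ± 1.15 (SD, n = 3). CYP1A1, a cytochrome P450 known as a target of the aryl hydrocarbon receptor, was at 3.48, 4.89 and 4.33 and at 6.72, 7.59 and 4.68, so that degenerative pool C fell among the blastocyst pools. GLDC, which decarboxylates glycine in the glycine cleavage system, was at 4.25, 2.69 and 3.67 in blastocysts and 8.48, 5.40 and 4.24 in degenerative embryos. The high value of GLDC was that of pool A, and pool C did not exceed blastocyst pool A. ABHD8, of the alpha/beta hydrolase family, was at 3.11, 3.61 and 3.98 and at 6.15, 5.73 and 4.24, with no overlap.

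The other genes of this group were nearer the level. STEAP2, which reduces iron and copper at membranes, differed by 1.51, and ABHD3, a phospholipase, by 1.41. KCNMA1, a potassium channel gated by calcium and voltage, was at 2.15, 5.98 and 5.95 in the degenerative pools, and STRA6, the receptor that takes up retinol, at 3.13, 5.67 and 5.48. In both, pool A lay low and pools B and C reached the level. RDH13, a retinol dehydrogenase of mitochondria, showed the contrary order, with 7.03 in pool A and 3.78 in pool C. CPTP, which moves ceramide-1-phosphate, CYP4V2, a fatty acid hydroxylase, TPMT, a methyltransferase of thiopurines, and SLCO1A2, a transporter of organic anions, differed by 0.82, 0.76, 0.47 and 0.40.

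Among 16 growth factors, receptors and signaling regulators, 10 differed by at least 1 and degenerative pool B was the highest in 10. FGF2, a fibroblast growth factor, was at 2.53, 3.37 and 3.79 in blastocysts and 5.40, 4.80 and 5.69 in degenerative embryos. The groups did not overlap, and the difference was 2.06. FGF1, of the same family, was at 4.65, 4.18 and 4.92 and at 5.51, 5.85 and 5.33, a smaller difference of 0.98 with no overlap. NDP, which encodes norrin, a ligand of a frizzled receptor, was at 2.12, 2.12 and 2.78 in blastocysts and 2.12, 5.39 and 6.34 in degenerative embryos. Pool A of the degenerative embryos was thus at the floor. NDP and MAOB were the only direct neighbors among protein-coding genes of the ARS-UCD2.0 assembly that were both members, and they differed in which degenerative pools were high.

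RGS16 and RGS3 shorten signals of G protein-coupled receptors by speeding GTP hydrolysis. RGS16 was at 2.19 in all 3 blastocyst pools and at 6.99, 7.28 and 2.41 in the degenerative pools. RGS3 was at 4.02, 2.57 and 4.30 and at 5.71, 7.35 and 5.40, without overlap. SPRY1, an inhibitor of receptor tyrosine kinase signaling, was at 3.44, 5.87 and 5.09 in the degenerative pools and differed by 1.30. JAKMIP1, which binds Janus kinases and microtubules, was at 3.16, 3.74 and 2.83 in blastocysts and 5.14, 5.72 and 4.45 in degenerative embryos, a difference of 1.86. EFNA5, an ephrin that guides cell contacts, and F2RL2, a thrombin receptor subunit, were high in pools B and C and low in pool A, at 2.79 and 3.25 there. PPP1R16B, which acts with a phosphatase, differed by 1.41. MOB3C, which acts with kinases of the Hippo type, and STK38L, itself such a kinase, differed by 1.04 and 0.42, and the peptide hormone SPX by 0.57.

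Among 14 genes of matrix, adhesion and the cell surface, 7 differed by at least 1 and the median difference was 0.98. PTX3, a pentraxin that stabilizes the hyaluronan matrix around the ovulated oocyte, was at 2.25, 2.12 and 4.27 in blastocysts and 2.12, 8.36 and 7.22 in degenerative embryos. The degenerative pools therefore split, with pool A at the floor. COL17A1, a collagen of hemidesmosomes, was at 2.91, 2.86 and 3.02 and at 6.67, 5.21 and 4.03, with pool A highest and no overlap. COL6A1, a chain of microfibrillar collagen, was at 2.72, 3.98 and 4.36 in blastocysts and 4.70, 5.90 and 6.01 in degenerative embryos. COL3A1, a fibrillar collagen, had 3.96 on 4 of the arrays, namely all blastocyst pools and degenerative pool A, and 5.77 and 5.70 in degenerative pools B and C.

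TNC (tenascin-C), a matrix protein of moving cells, was at 4.28, 6.04 and 5.33 in the degenerative pools, and CD44, a receptor of hyaluronan, at 2.94, 5.82 and 5.44. In PTX3, COL3A1, TNC and CD44 alike, pools B and C were at the level and pool A was under it. FERMT3 (kindlin-3), an activator of integrins, had the contrary order, at 8.45, 5.62 and 4.58. PLOD1, which hydroxylates lysine in collagen, reached 5 in all 3 degenerative pools and differed by 1.79. HS3ST5, a sulfotransferase of heparan sulfate, JAM3, a junction molecule, PCDH10, a protocadherin, IGSF11, an adhesion protein, RADIL, an effector of RAP1, and TSKU, a secreted leucine-rich protein, differed by 0.66 to 1.005.

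Markers of other cells that could bring such transcripts were listed alongside. Of 11 markers of cumulus and granulosa cells measured, FSHR, LHCGR, AMH and FOXL2 lay within 1 of the floor in every pool. Their summed signal on the linear scale ran from 4905 to 6501 in blastocysts and from 4005 to 5602 in degenerative embryos, and 4 to 6 of the markers reached 5 in each blastocyst pool and 4 or 5 in each degenerative pool. PTX3 is itself a marker of this list and the only member in it. The other markers moved in different ways. HSD3B1, which makes progesterone, was at 6.12 in degenerative pool A and at 11.1 to 12.1 in the other pools, and HAS2, which makes hyaluronan, was highest in degenerative pool A, at 11.80. The difference of means was 0.45 for HAS2 and 0.31 for STAR, and -0.82 for TNFAIP6, -1.10 for CYP11A1, -2.08 for CYP19A1 and -2.16 for HSD3B1. The part of such cells in the values of PTX3, TNC, CD44 and COL3A1 was not tested. Of 8 markers of spermatozoa, 5 lay within 1 of the floor in all pools, and none was a member.

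Maternal oocyte transcripts, which a normal embryo clears, were also listed, and none of the 8 measured was a member. Their summed linear signal was 146 to 236 in blastocysts and 252 to 416 in degenerative embryos, without overlap. Most of this sum came from OOEP, of the subcortical complex of oocytes. OOEP was at 6.73, 7.31 and 7.57 in blastocysts and 7.82, 7.57 and 8.51 in degenerative embryos. Blastocyst pool C and degenerative pool B were equal. In each blastocyst pool 1 of them reached 5, as in degenerative pools B and C, and 4 did so in degenerative pool A. These were OOEP at 7.82, the zona pellucida genes ZP2 at 6.16 and ZP3 at 5.42, and NLRP5, of the same complex as OOEP, at 5.03. BMP15, GDF9 and MOS lay within 1 of the floor in every pool. The part of retained maternal RNA in the members was not tested.

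Among 8 genes of immune signaling and defense, 7 differed by at least 1 and pool B was the highest in 6. CD5L, a protein secreted by macrophages, was at 2.13, 3.35 and 4.95 in blastocysts and 8.51, 5.40 and 5.24 in degenerative embryos. Its pools did not overlap, though blastocyst pool C came within 0.28 of the lowest degenerative pool. STAT4, a transcription factor of cytokine signaling, was at 2.79, 2.85 and 4.09 and at 6.12, 6.85 and 4.98, with no overlap. IL2RG, the receptor chain shared by several interleukins, was at 4.91, 6.05 and 6.002 in degenerative embryos and differed by 1.70. RTP4, known as an interferon-induced gene, was at 2.12 in degenerative pool A and at 5.76 and 5.24 in pools B and C. TRIM38, a ubiquitin ligase of innate immunity, CFB, complement factor B, TRAF3IP2, an adaptor of interleukin-17 signaling, and PTPN6, a tyrosine phosphatase of blood cells, differed by 1.24, 1.12, 1.007 and 0.92.

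Of 7 markers of blood and immune cells measured, PTPRC, CD3E, TYROBP and HBA lay within 1 of the floor in every pool. The summed linear signal of the list ran from 52.6 to 211 in blastocysts and from 263 to 1151 in degenerative embryos, and 1 marker, HBB, reached 5. HBB, a hemoglobin chain, was at 3.95, 5.43 and 7.44 in blastocysts and 8.31, 10.12 and 7.76 in degenerative embryos. The part of blood cells in the values of the immune genes was not tested.

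Among 14 genes of transcription, RNA and DNA, degenerative pool A was the highest in 11, and 7 did not overlap. ETS1, a transcription factor of the ETS family, was at 3.27, 4.57 and 4.64 in blastocysts and 7.81, 5.42 and 5.67 in degenerative embryos, a difference of 2.138. RSRP1, an arginine- and serine-rich protein, was at 4.56, 3.04 and 4.28 and at 7.92, 5.37 and 4.56, so that degenerative pool C equaled blastocyst pool A. SART1, a splicing factor, was at 8.35, 5.35 and 5.48 in degenerative embryos and differed by 1.63 without overlap. RTF1, of the complex that travels with RNA polymerase II, was at 7.66, 4.96 and 5.30. CSDC2, which binds RNA, went the other way among pools, at 3.01, 7.03 and 6.02. ZNF608 differed by 1.25 and NAT10, which acetylates RNA, by 1.12. CCNK (cyclin K of transcription), MTF1 (the metal-responsive factor), TUT1 (which extends RNA ends), POLL (a repair polymerase), ZNF592, RESF1 and UHRF1 (which reads hemimethylated DNA) differed by 0.46 to 0.94.

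Among 9 genes of the cytoskeleton, caveolae and cilia, CLIP3, which links microtubules to trafficking membranes, was at 3.42, 4.80 and 4.79 in blastocysts and 7.56, 7.05 and 6.07 in degenerative embryos. The gap between its groups was 1.27. SYNE1 (nesprin-1), which ties the nucleus to actin, was at 2.94, 3.18 and 4.54 and at 5.09, 5.86 and 5.48. GSN (gelsolin), which severs actin filaments, was at 9.09, 5.12 and 4.21 in degenerative embryos, with the high signal in pool A. CNN1 (calponin), a protein of contractile smooth muscle, was at 3.26, 6.49 and 5.27, and CAVIN1, which shapes caveolae, at 2.87, 5.20 and 5.07. Both of these were low in pool A. RSPH3 and RSPH9, of the radial spokes of motile cilia, differed by 1.33 and 0.54, and MKKS and RPGRIP1, of ciliary base and transition zone, by 1.02 and 0.91.

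Among 12 genes of membrane traffic, autophagy and protein turnover, pool A was the highest in 8 and in 0 of the 12 did all 3 degenerative pools reach 5. SRP68, a subunit of the signal recognition particle, was at 2.81, 2.82 and 3.41 in blastocysts and 8.18, 2.83 and 5.26 in degenerative embryos. NIBAN1, a stress-related protein, was at 3.20, 6.79 and 6.88 in the degenerative pools, with pool A equal to blastocyst pool A to 2 decimals. RUBCNL and ATG4D, of autophagy, differed by 1.36 and 1.19, VPS13D, a lipid transfer protein, by 1.15, and SYP (synaptophysin), of synaptic vesicles, by 1.08. COG8, of Golgi tethering, also differed by 1.08. FEM1C and GID4, receptor subunits of ubiquitin ligases, differed by 1.013 and 0.60.

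**Figure D4:**
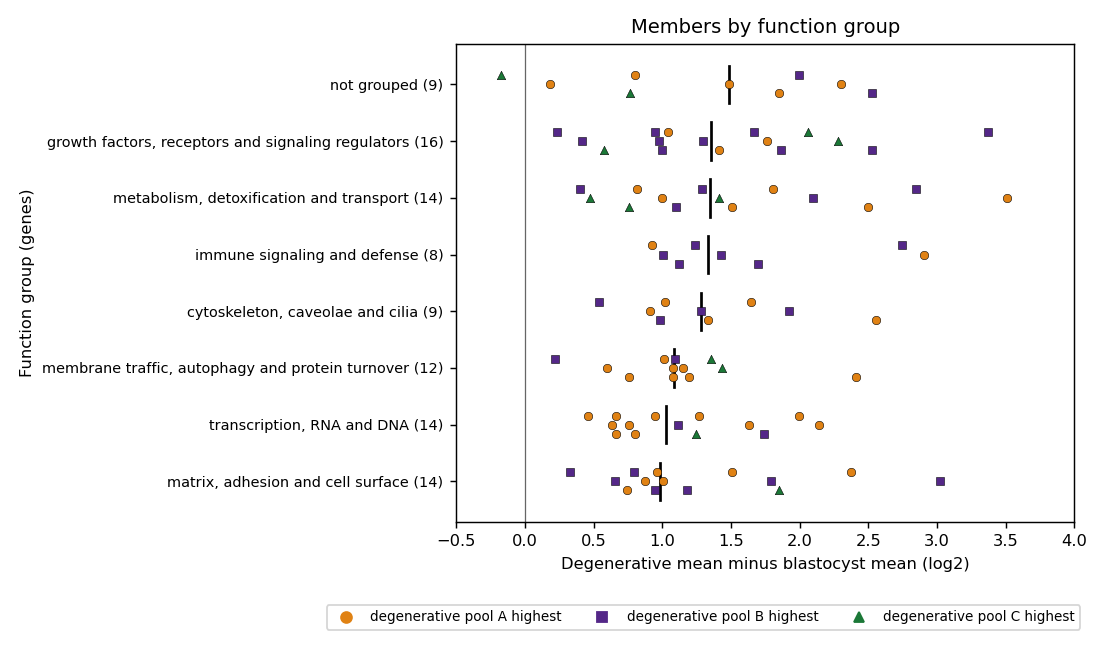
Difference of group means (horizontal axis, degenerative minus blastocyst, log2) of the 96 described genes by function group (vertical axis), each point a gene, colored by the degenerative pool with the highest value, with a black bar at the group median. Group medians lie between 0.98 and 1.49, and pool A is highest in 11 of 14 genes of transcription, RNA and DNA.

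The remaining 9 genes were placed in no function group. LIX1 was at 2.52, 3.17 and 4.15 in blastocysts and 5.96, 6.27 and 5.18 in degenerative embryos, and TMEM106A, a membrane protein, at 2.57, 3.52 and 3.62 and at 5.03, 5.54 and 5.13. Neither overlapped between the groups, and TMEM106A had a gap of 1.42. LOC404105 was at the floor in the blastocysts, at 2.12, 2.1396 and 2.12, and at 6.06, 5.10 and 2.12 in degenerative embryos. LOC512867 was at 2.95, 3.55 and 3.30 and at 5.81, 4.09 and 5.45. LOC781349, C7H19orf25, LOC781146 and METTL25B differed by 1.49, 0.80, 0.76 and 0.18. FAM171A1 had a mean that was lower in degenerative embryos, by -0.18 on the log2 scale, since degenerative pool A was at the floor and pools B and C were at 5.57 and 5.86. The 81 members without a single symbol differed by -0.24 to 3.69 with a median of 1.11, and 30 of them did not overlap. All 3 degenerative pools reached 5 in 13 of these.

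The array holds several probe sets for some of these genes, and a bright one shows that a gene was not under the level in blastocysts. Of the 96 genes, 51 had no other probe set named for them alone, and 45 had 74 others. In 21 of the 45 genes another probe set reached 5 in at least 2 blastocyst pools, so for these the rule describes a probe set and not the gene. In 21 others every further probe set was under 5 on all 6 arrays, so none of these repeated the level of the member in degenerative embryos. Of the 74, 1 reached 5 in at least 2 degenerative pools but not in at least 2 blastocyst pools. Probe sets of a gene can share sequence or cover different transcript ends, and they come from the same arrays, so they are no independent evidence and are given without a test.

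MAOB had a second probe set at 4.98, 6.60 and 6.79 in blastocysts and 8.65, 7.55 and 6.88 in degenerative embryos, a difference of 1.57. It was thus detected in blastocysts, and here too degenerative pool A was the highest. SRP68 had another probe set at 8.88, 9.53 and 9.12 in blastocysts and 9.89, 9.85 and 9.46 in degenerative embryos, so the signal of its member probe set at 8.18 in pool A alone was not repeated in size. UHRF1, with a member difference of 0.46, had another probe set that rose from 6.70, 6.49 and 6.10 to 10.20, 8.08 and 7.56, the largest difference among the probe sets detected in blastocysts, at 2.18. STK38L had another at 5.40, 7.27 and 8.24 and at 7.32, 9.21 and 8.96.

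FGF1 had 11 other probe sets. Of these, 8 lay at the floor on all arrays, and a further one was at 9.81, 10.56 and 11.20 in blastocysts and 12.79, 12.28 and 11.51 in degenerative embryos. The last pair, also detected in blastocysts, differed by 0.35 and -0.14. SART1 had probe sets that differed by 1.27 and 1.24, both with pool A highest, and another near the floor. RTF1 had a second probe set at 7.67, 3.93 and 4.18 in the degenerative pools, again with pool A high, and COL3A1 one at 2.48, 6.41 and 4.96, again with pool A low. For PLOD1 and VPS13D the further probe set differed by -0.18 and -0.02, in the other direction from the member. RESF1 had one that differed by -0.20 and one, under 5 on all arrays, that differed by 0.31. FGF2, CYP1A1, COL6A1, COL17A1, RGS3, STAT4 and SYNE1 had other probe sets only at or near the floor on every array. For ETS1 another probe set was at 4.19, 5.05 and 5.02 in blastocysts, just past the level, and a further one lay at the floor.

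Of the 24 probe sets that were detected in blastocysts, which came from 21 genes, 20 were higher in degenerative embryos and 4 were lower, with a median difference of 0.58. Over all varying probe sets, 51.7% were higher. Of all 74, of which 45 varied, 12 were higher by at least 1 and 0 were lower by as much. Over all varying probe sets, 5.07% were higher by at least 1. Nothing is read from these counts, since the genes were chosen by a probe set that was higher on the same arrays.

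**Figure D5:**
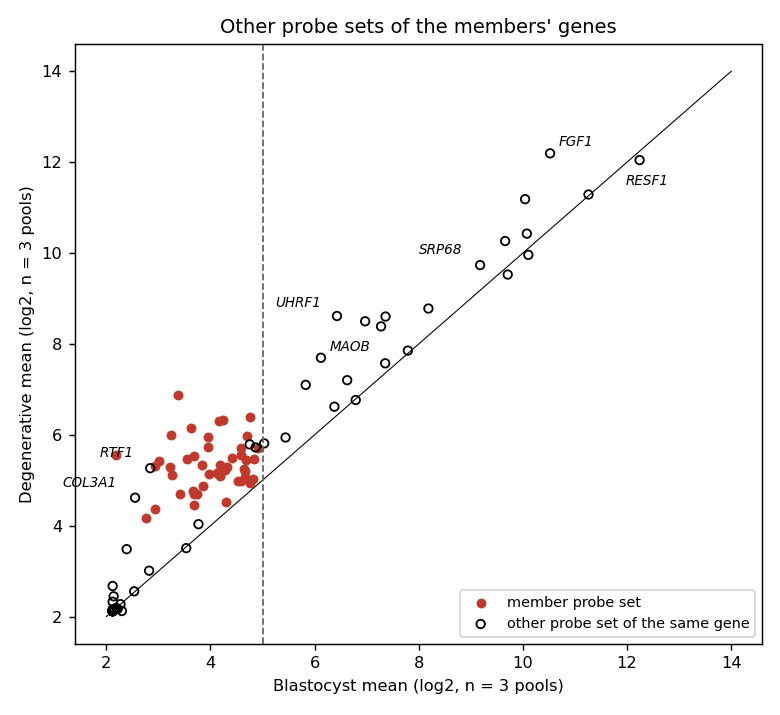
Mean of the blastocyst pools (horizontal axis, log2, n = 3) against the mean of the degenerative pools (vertical axis, log2, n = 3) for the member probe sets of 45 genes (red) and the 74 other probe sets named for the same genes (open circles), with a line of equality and a dashed line at 5. Levels of different probe sets are not comparable, but 24 open circles stand for probe sets that reached 5 in at least 2 blastocyst pools, and many others lie at the floor near 2.12.

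Related gene lists were counted for context, with 1 probe set per gene, and limma called 0 of their genes at an adjusted p of at most 0.15. Of 19 genes of extracellular matrix and matrix proteases, 15 were higher in degenerative embryos, with a median difference of 0.78. Without the members COL3A1 and TNC, 13 of 17 were higher and the median was 0.62, beside 0.02 over all 8175 genes that varied. With an unadjusted limma p under 0.05, 1 of the 19 was higher and 0 were lower. Of all 8175 genes that varied, 4455 were higher, and at that unadjusted limma p 383 were higher and 463 lower. The counts of every list below stand beside these. Of 13 genes of muscle and cytoskeleton, 10 were higher with a median of 0.58, or 9 of 12 with a median of 0.33 without CNN1, and at an unadjusted limma p under 0.05 there were 4 higher and 2 lower. Of 14 growth factors, BMP and Wnt ligands and their inhibitors, 12 were higher with a median of 0.17, or 11 of 13 with a median of 0.14 without FGF2, and 2 had an unadjusted limma p under 0.05, both higher. Immediate early genes had a median of 0.37, with 10 of 14 higher and 0 members, and 2 were higher and 1 lower at an unadjusted limma p under 0.05.

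The lists of stress and death genes held no member. The integrated stress response had a median of -0.23 over 14 genes, with 2 higher and 1 lower at an unadjusted limma p under 0.05. The p53 targets had a median of 0.13 over 9 genes, with 0 higher and 2 lower at that p. Hypoxia genes had a median of 0.20 over 12, cytokines and chemokines 0.08 over 10, autophagy and lysosome -0.07 over 15, and amino acid breakdown and gluconeogenesis -0.08 over 11. At an unadjusted limma p under 0.05 these had 2 higher and 2 lower, 0 and 1, 0 and 3, and 0 and 1. G protein-coupled receptors, ion channels and pumps, homeobox and axis factors, nuclear receptors and genes of meiosis and germ line had medians of at most 0.07, held no member, and had 1, 0, 0, 1 and 1 genes higher and 0, 2, 0, 0 and 0 lower at that p. The lists hold chosen genes and not whole families. The members KCNMA1, F2RL2, GLDC, ATG4D and RUBCNL, for example, were on none of them.

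Signals from the ends of control transcripts were compared as a sign of RNA quality. The RNA had been amplified from a poly-dT primer, so RNA integrity and amplification cannot be told apart in these signals. GAPDH, EF1A, cyclophilin and eIF-4E, 4 controls, all had a 3′ minus 5′ difference (log2) with a higher mean in degenerative embryos. It was 2.43 ± 0.54 (SD, n = 3) in blastocysts and 2.50 ± 0.02 in degenerative embryos for GAPDH, -0.37 ± 1.26 and 0.68 ± 0.15 for EF1A, and 2.46 ± 0.31 and 2.83 ± 0.36 for cyclophilin, and the pools of these 3 overlapped between the groups. For eIF-4E it was 7.85 ± 1.09 in blastocysts and 9.60 ± 0.41 in degenerative embryos, and the pools did not overlap. Its 5′ probe set was low in the degenerative pools, at 2.64, 2.56 and 3.70, and at 6.56, 4.42 and 4.66 in blastocysts. Actin went the other way. Its 5′ probe set was near the floor, at 2.20 in all 6 pools. Its 3′ probe set was at 7.56, 8.84 and 8.11 in blastocysts and 4.48, 7.14 and 5.27 in degenerative embryos. The actin difference was thus lower in degenerative embryos, without overlap. The floor limits how large such a difference can be. The share of probe sets within 0.01 of the floor was 27.4% to 28.6% on the 6 arrays. The part of RNA quality or of the amplification in the members was not tested.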

How the data were processed

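The authors' deposited values were log2 expression values per probe set, computed with GCRMA, for which the submitters' processing notes give version 2.14.1. In GCRMA, quantile normalization gives all arrays the same distribution, median polish combines the probes of a set, and the background model uses probe bases. An array has no read depth, so how precise a value is depends on having 3 pools per group and on the floor.

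Members were taken by the rule given above from all probe sets but 20 controls. The members, gene lists and tests were chosen with earlier results of these data known, and functions were assigned after the values were seen. limma 3.58.1 in R 4.3.3 (lmFit, eBayes, Benjamini-Hochberg) was run on the 18937 probe sets that varied, without the 5079 that did not. It was tried on simulated data with a shift larger than the difference of any member. That trial does not show how it performs on differences of the size seen here. The SAM test of the methods was not run. Symbols are those of GEO's platform table, brought up to date with ARS-UCD2.0. A gene in a list was represented by its probe set with the highest mean. With ARRDC2 and SDS left out, all pool values are given for the 24 single-symbol members with the largest difference of means, and for any with a gap of at least 2 between groups and all degenerative pools above 5, of which there was none. Pools with the same letter deviated together from their group means (correlations over probe sets 0.373, 0.180 and 0.275 for A, B and C), though blastocyst pool C deviated most like degenerative pool B, at 0.374. The labels do not say what a letter shares, so the letter was a block in an alternative fit. Other alternatives were another level, centring, all 3 pools, a minimum difference, and each pool left out. Promoters were not analysed here. The single values of 3 signaling genes are not reported here, though they are in the counts of their group. P-values measure the spread between pools.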

Additional observations from a re-analysis of the deposited data

How the results depend on the processing

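The number of members was 141 with a level of 4 and 177 with a level of 6, but only 26 and 22 of these were among the 179, so the level decides which probe sets are taken. With each array centred on a common median there were 186, of which 172 were shared. Requiring all 3 pools gave 30 members (17 with a single symbol) and 35 in the reverse set, and adding a difference of at least 1 gave 107, 63 and 59. Without a single pool the count lay between 56 (degenerative pool B left out) and 307 (blastocyst pool C left out), that with a single symbol between 30 and 173, and the reverse set between 51 and 188. Leaving out a pool also changes how many pools the rule asks for. Without degenerative pool A there were 93 members, and without pool C 90. limma called 4 probe sets over all tested, 1 of them higher. With the pool letter as a replicate block it called 0 (1789 at an unadjusted p under 0.05). It called 1 after centring, 1 with a filter on dim probe sets, 0 with an intensity trend (1526 at an unadjusted p under 0.05) and 57 with array weights, 13 of them higher. Without a single pool it called 0 to 33, and 0 to 18 as higher. The probe sets in which all degenerative pools lay above all blastocyst pools numbered 1227, and 1638 to 2610 without a single pool. For the 24 named members, 192 of 192 alternative differences kept their sign and moved by less than the pooled SD within groups. These members were chosen for large positive differences on the same arrays, so the sign was all but fixed in advance. The SD was also a lenient limit, at up to 2.50 for PTX3, and nothing is read from this count. Without degenerative pool A, SRP68 fell to 1.03, RSRP1 to 1.006, GLDC to 1.28, CD5L to 1.84, ETS1 to 1.38 and LOC404105 to 1.48, whereas PTX3 came to 4.91 and NDP to 3.53. Other single pools also moved some of these by over 1.5 times, with PTX3 at 1.79 and SRP68 at 3.71 without degenerative pool B, and NDP at 1.42 and LOC404105 at 3.45 without degenerative pool C. With group medians in place of means, ETS1 came to 1.09, RSRP1 to 1.09 and PTX3 to 4.96, and the other 21 moved by less than 1.5 times. The causes were not tested.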
